A study of Mus musculus with 6 samples.

Results

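The genes of insulin-like growth factor 1 (Igf1), of the receptors Igf1r and Insr, and of the binding proteins Igfbp1 to Igfbp7 were described in the embryonic mouse pancreas with and without Bicaudal C1 (Bicc1). These 10 genes, among 24389 in the files, were taken by their symbols. The tissue was whole dorsal pancreas of E13.5 embryos on a mixed C57BL/6 and ICR background, with 3 Bicc1 knockout (KO) and 3 wild-type (WT) libraries, sequenced as mRNA. Bicc1 encodes an RNA-binding protein whose loss causes cystic kidneys in mice. The sources used here give neither the design of the knockout allele nor whether a replicate was 1 embryo or a pool, so a p-value here reflects the spread among libraries, part of which may be technical. In whole tissue, a change in the number of cells of a type and a change in RNA per cell cannot be told apart.

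Insulin-like growth factors drive fetal growth. They bind the receptor tyrosine kinases encoded by Igf1r and Insr, which pass the signal through adaptor proteins to the PI3K, Akt and mTOR kinases. Secreted binding proteins hold the ligands in blood and matrix and limit or deliver them to the receptors, and proteases such as pappalysin (Pappa) release the ligand by cutting a binding protein.

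In each library a gene has 1 expression value of unstated unit, with a floor of 0.01, and read depth is unknown. Values were compared gene by gene between libraries and not between genes. The exception is the sums of cell type markers, in which the genes with the largest values weigh most. The sums of all values ranged from 674295 to 716255. Bicc1 itself was 3.96, 4.91 and 4.48 in KO 1, KO 2 and KO 3, against 19.7, 19.5 and 18.2 in WT 1, WT 2 and WT 3, a log2 change of -1.89 with an adjusted p of 0.00067 in limma. Of the exonic bases of Bicc1, 4.69% lie within exons of the antisense gene 4930533K18Rik, and the reads carry no strand. The antisense gene was 1.305 to 1.58 in KO and 4.38 to 5.46 in WT. The first principal component, with 57.3% of the variance, set KO 1, KO 2 and WT 3 apart from KO 3, WT 1 and WT 2. Across tested genes, Spearman's rho between a gene's GC content and its deviation in a library was 0.40 to 0.61 in the first 3 libraries and -0.66 to -0.19 in the others. KO and WT were therefore also compared within each of these sides, that is, among KO 1, KO 2 and WT 3, and again among KO 3, WT 1 and WT 2. WT 3 is the only WT library on the first side and KO 3 the only KO library on the second. These changes therefore have no error estimate, and the same sign on both sides is not a replication. Markers of the pancreatic epithelium were present in every library, with Pdx1, Ptf1a and Cpa1 all at 3.30 or more.

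Of the 10 genes, 8 reached a mean value of 1 and were tested, and 0 of them passed limma at an adjusted p of 0.05 (Benjamini-Hochberg over 13911 genes). The tested genes called by this rule made up 0.0144% of all, 2 of 13911. At an unadjusted p of 0.05, 2 of the 8 passed, Igf1 and Igfbp2, each with a higher mean in KO, where 10.3% of all tested genes passed and 5.89% passed with a higher and 4.36% with a lower mean in KO. KO and WT values overlapped in all 10 genes, while 16.4% of all tested genes had groups that did not overlap. Of the 8 tested genes, 7 had a higher mean in KO on the scale of log2(value + 1), and the median log2 change of all 8 was 0.16. Over all tested genes this share was 53.5% and the median was 0.014. The KO mean was higher within both sides of the component in 3 of the 8 genes, Igf1, Igfbp2 and Igfbp5, and lower within both in 1, Igfbp7, where 39.4% and 27.4% of all tested genes were.

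**Figure D1:**
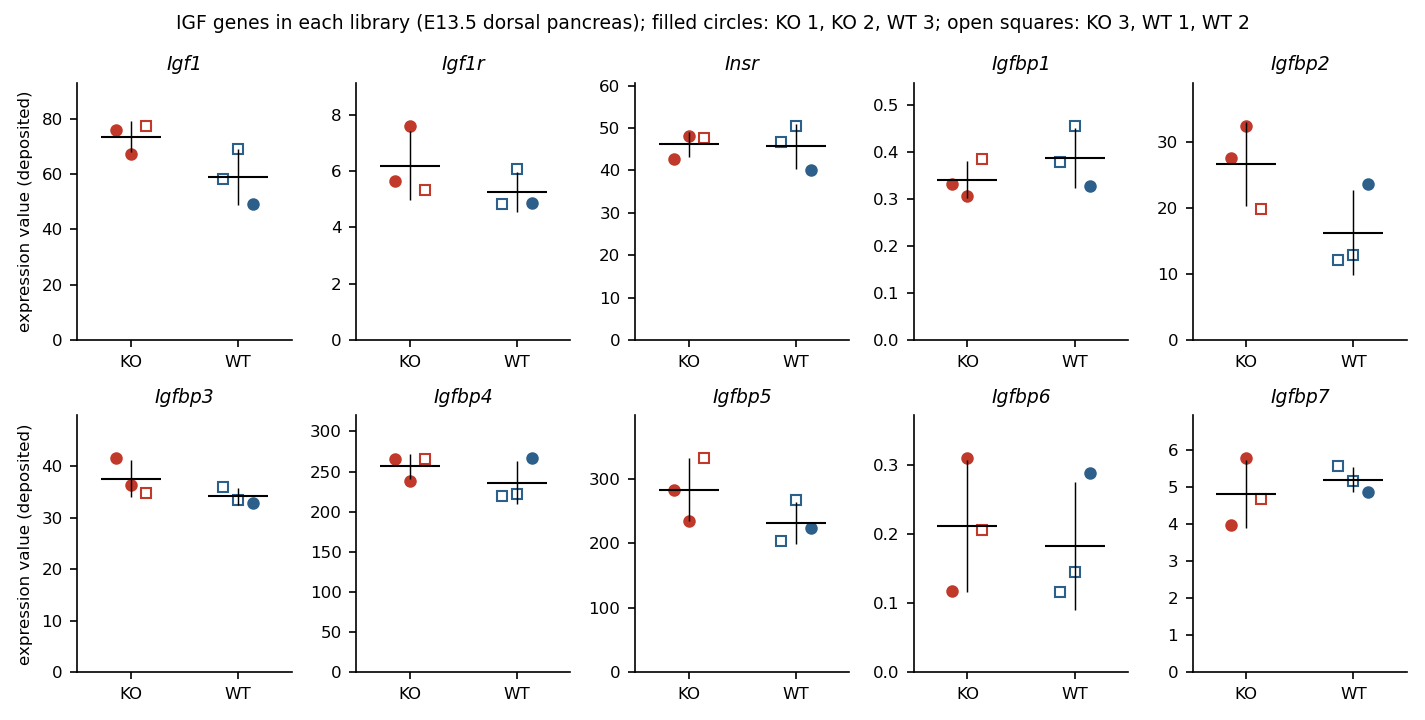
Deposited expression value (vertical axis, unit not stated, starting at 0, own scale in each panel) of each IGF gene in the 3 KO and the 3 WT libraries. Points are libraries, horizontal lines are means and vertical lines are SDs. Filled circles are KO 1, KO 2 and WT 3, and open squares are KO 3, WT 1 and WT 2. KO and WT points overlap in every panel, and in the Igfbp2 panel the lowest points are WT 1 (12.2) and WT 2 (13.0).

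The ligand gene Igf1 (ENSMUSG00000020053) lies on chromosome 10, as Bicc1 does. Its value was 76.0, 67.2 and 77.4 in KO 1, KO 2 and KO 3, against 58.3, 69.2 and 49.1 in WT 1, WT 2 and WT 3. The groups overlapped only through WT 2, which lay above KO 2. The mean was 73.5 ± 5.53 in KO against 58.9 ± 10.1 in WT (n = 3 each, ± SD), 125% of the WT mean. The log2 change of 0.33 (SE 0.127, 95% interval 0.032 to 0.62) did not pass limma, with an unadjusted p of 0.034 and an adjusted p of 0.47. The change was 0.53 among KO 1, KO 2 and WT 3 and 0.28 among KO 3, WT 1 and WT 2, so KO was higher on both sides. The first of these values rests on WT 3, the lowest library, as the only WT. Over the groups the change was 0.21 without WT 3.

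The longest Igf1 transcript has a GC content of 38.0%, and only 2.25% of the tested genes have a lower one. After each library was corrected for GC content, Igf1 was 81.3, 71.4 and 76.1 in KO 1, KO 2 and KO 3, against 54.8, 63.7 and 50.8 in WT 1, WT 2 and WT 3. On this scale the lowest KO value lay above the highest WT value, as in 1 of the 8 tested IGF genes. Of the 13385 tested genes with a known GC content, 4.65% had all KO values above all WT values after the correction. In either direction, 14.3% had groups that did not overlap. A count of 1 among 8 genes is too small to set against these shares and is not a result about Igf1. The corrected log2 change was 0.43, with an adjusted p of 0.38 in limma, which did not pass. In the GENCODE annotation no exon of another gene overlaps the exons of Igf1.

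The receptor genes showed no called difference. Igf1r (ENSMUSG00000005533, chromosome 7) encodes the main receptor of IGF1. It was 5.65, 7.60 and 5.33 in KO 1, KO 2 and KO 3, against 4.84, 6.06 and 4.87 in WT 1, WT 2 and WT 3. KO 2 was the highest library and WT 2 the second highest, above KO 1 and KO 3. The mean was 6.19 ± 1.23 in KO against 5.26 ± 0.697 in WT (n = 3 each, ± SD). The log2 change of 0.19 (95% interval -0.13 to 0.51) had an adjusted p of 0.54 in limma. It was 0.057 without KO 2. Within KO 1, KO 2 and WT 3 the change was 0.36, against -0.021 within KO 3, WT 1 and WT 2, so the higher KO mean came from 1 side.

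Insr (ENSMUSG00000005534, chromosome 8), the insulin receptor gene, had the smallest difference of the 8 tested genes. Its value was 42.7, 48.0 and 47.6 in KO 1, KO 2 and KO 3, against 46.6, 50.5 and 40.0 in WT 1, WT 2 and WT 3. The highest and the lowest library were both WT. The mean was 46.1 ± 2.97 in KO against 45.7 ± 5.32 in WT (n = 3 each, ± SD), a log2 change of 0.017 with an adjusted p of 0.95 in limma. Its 95% interval ran from -0.21 to 0.25, so changes of that size in either direction were within the error. The sign turned negative without KO 2, without KO 3 or without WT 3.

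Among the binding proteins, Igfbp2 and Igfbp5 are neighbours on chromosome 1 and point towards each other, with no other protein-coding gene between them. Igfbp2 is abundant in fetal tissues, and the product of Igfbp5 binds to extracellular matrix. The sequence around the start of each gene is shown for this pair of neighbours, which was picked with the values of both known. Whether these sequences have a part in the levels was not tested. Both are RefSeq sequences of build GRCm38.p6, from 250 bases before to 50 bases after the start, at chr1:72824230-72824529 on the plus strand for Igfbp2 and at chr1:72874816-72875115 on the minus strand for Igfbp5. Capitals mark matches on either strand to any of 4 motifs. The GC box was searched as GGGCGG. The TATA box was searched as TATAAA. The CCAAT box was searched by the letters of its name. The core of the hypoxia response element was searched as ACGTG.
Igfbp2: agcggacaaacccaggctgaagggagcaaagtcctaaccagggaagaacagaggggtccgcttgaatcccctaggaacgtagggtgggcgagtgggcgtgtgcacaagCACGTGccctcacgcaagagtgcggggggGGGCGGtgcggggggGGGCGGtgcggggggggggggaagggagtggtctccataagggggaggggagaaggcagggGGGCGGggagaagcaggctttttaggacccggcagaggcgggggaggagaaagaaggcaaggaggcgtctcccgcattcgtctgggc
Igfbp5: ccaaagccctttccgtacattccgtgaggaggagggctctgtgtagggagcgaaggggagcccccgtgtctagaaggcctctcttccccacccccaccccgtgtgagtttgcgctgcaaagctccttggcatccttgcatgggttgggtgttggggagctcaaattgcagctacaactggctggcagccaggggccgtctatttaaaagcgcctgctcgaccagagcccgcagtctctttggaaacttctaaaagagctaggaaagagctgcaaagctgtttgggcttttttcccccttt
The Igfbp2 window held 3 GC boxes, and the hypoxia core on both strands of the same 6 bases, and 67% of its bases were G or C. A second RefSeq window of Igfbp2, at chr1:72825137-72825436 for another start, held none of the 4 motifs and had a GC content of 57.3%. The Igfbp5 window held none of the 4 motifs, and its GC content was 56.3%. Among the other IGF genes, the window of Igfbp7, which had a lower mean in KO, held 4 GC boxes and 1 hypoxia core. Its GC content was 73.3%. The Igf1r window held 2 GC boxes, and no further window held the GC box or the hypoxia core. Of 32851 windows of this length in the table, 35.7% held the GC box, 13.6% the TATA box, 37.4% the CCAAT box and 19.6% the hypoxia core. These matches describe the letters only.

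Igfbp2 (ENSMUSG00000039323) varied most between libraries among the tested IGF genes, 2.67 times between the lowest and the highest. It was 27.65, 32.5 and 20.0 in KO 1, KO 2 and KO 3, against 12.2, 13.0 and 23.75 in WT 1, WT 2 and WT 3. The 3 libraries on the first side of the principal component were the 3 highest, and WT 3 lay above KO 3. The mean was 26.7 ± 6.32 in KO against 16.3 ± 6.46 in WT (n = 3 each, ± SD), 164% of the WT mean. The log2 change of 0.71 (SE 0.264, 95% interval 0.098 to 1.33) did not pass limma, with an unadjusted p of 0.029 and an adjusted p of 0.47. It was 1.0 without WT 3 and 0.55 without WT 1.

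The GC content of the longest Igfbp2 transcript is 62.1%, higher than that of 99.0% of the tested genes. The mean of log2 values was 0.87 higher in KO 1, KO 2 and WT 3 than in KO 3, WT 1 and WT 2, against a median of 0.31 for the 1339 tested genes with a GC content of 57.3% or more. The change between KO and WT was 0.32 among KO 1, KO 2 and WT 3 and 0.63 among KO 3, WT 1 and WT 2. After GC correction Igfbp2 was 25.1, 25.0 and 21.1 in KO 1, KO 2 and KO 3, against 14.8, 16.3 and 21.4 in WT 1, WT 2 and WT 3. Again only WT 3 overlapped the KO values, and the log2 change was 0.43 (adjusted p 0.55 in limma). How much of the difference in Igfbp2 follows GC content was not tested beyond this correction.

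**Figure D2:**
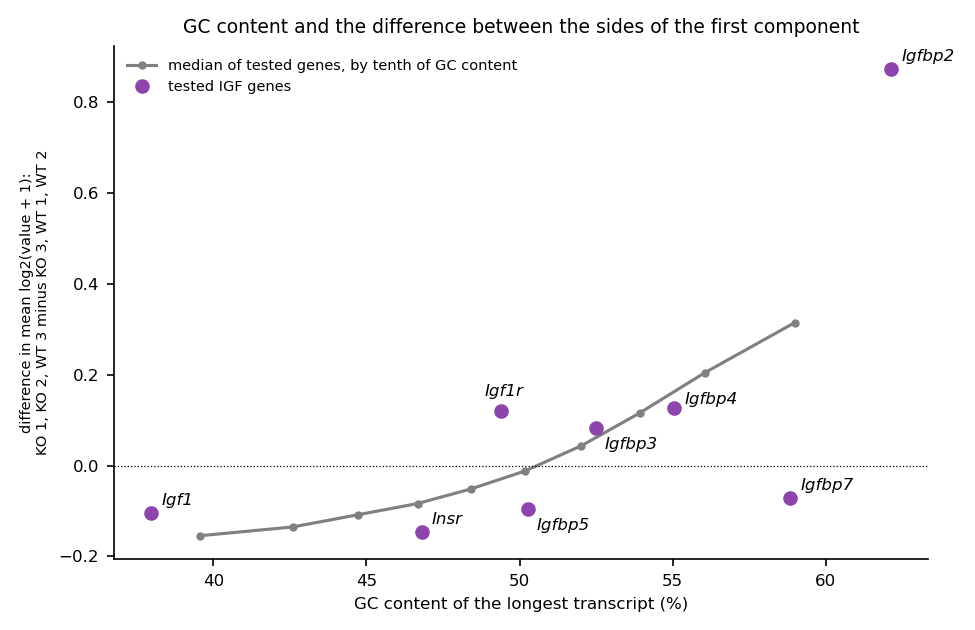
GC content of a gene's longest transcript (horizontal axis, percent) against the difference in mean log2(value + 1) between KO 1, KO 2 and WT 3 and the other 3 libraries (vertical axis). The grey line joins the medians of tested genes in 10 bins of equal size by GC content, and the purple points are the 8 tested IGF genes. The median is -0.15 in the lowest bin and 0.31 in the highest, Igfbp2 lies at 0.87, and Igfbp7 lies at -0.072.

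Igfbp5 (ENSMUSG00000026185) had another order of libraries than its neighbour. It was 282, 235 and 332 in KO 1, KO 2 and KO 3, against 203.5, 268 and 224 in WT 1, WT 2 and WT 3. KO 3 was the highest, and WT 2 lay above KO 2. The mean was 283 ± 48.6 in KO against 231.5 ± 32.8 in WT (n = 3 each, ± SD), a log2 change of 0.28 (95% interval -0.061 to 0.63) with an adjusted p of 0.48 in limma. The change was 0.20 among KO 1, KO 2 and WT 3, against 0.51 among the other 3 libraries, and it was 0.16 without KO 3. Over the 6 libraries Pearson's r of log2 values was 0.17 between Igfbp2 and Igfbp5 and 0.81 between Igf1 and Igfbp5, given as descriptions of libraries that share the groups and the component.

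Igfbp1 and Igfbp3 form a second pair of converging neighbours, on chromosome 11. Igfbp3 (ENSMUSG00000020427) encodes the main carrier of IGFs in blood. It was 41.6, 36.5 and 34.75 in KO 1, KO 2 and KO 3, against 36.1, 33.5 and 33.0 in WT 1, WT 2 and WT 3. Only WT 1 lay within the KO range. The mean was 37.6 ± 3.575 in KO against 34.2 ± 1.66 in WT (n = 3 each, ± SD), with a log2 change of 0.13 (95% interval -0.068 to 0.33) and an adjusted p of 0.52 in limma. Within KO 3, WT 1 and WT 2 the change was -0.00077, after GC correction it was 0.047, and without KO 1 it was 0.058.

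Igfbp1 (ENSMUSG00000020429), a binding protein gene of the liver that fasting induces, was low in all libraries and was not in the tested set. It was 0.333, 0.307 and 0.385 in KO 1, KO 2 and KO 3, against 0.379, 0.456 and 0.327 in WT 1, WT 2 and WT 3. With no filter on low values its log2 change was -0.048, with an adjusted p of 0.70 in limma. The liver markers Alb and Afp were at 0.14 to 0.62 and at 5.54 to 7.73. Of the other liver markers, Ttr was 34.9 to 56.6 and Serpina1a 15.9 to 48.1. The sum of all 7 liver markers was 80.75 to 93.55 in KO and 70.2 to 79.1 in WT, without overlap. In this sum Ttr and Serpina1a have the largest values, and KO and WT overlapped in each of the 7 markers taken singly. Alb, Afp, Apoa1 and Fgb had a lower mean in KO, and Apoa2, Ttr and Serpina1a a higher one. Of the 4 that were tested, 2 had a higher mean in KO.

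Igfbp4 (ENSMUSG00000017493, chromosome 11) encodes a binding protein that inhibits IGF action until it is cut by pappalysin. It was 266, 238 and 265 in KO 1, KO 2 and KO 3, against 219.5, 222 and 267 in WT 1, WT 2 and WT 3. WT 3 was the highest of all libraries, and WT 1 and WT 2 were the lowest. The mean was 256.5 ± 15.9 in KO against 236 ± 26.5 in WT (n = 3 each, ± SD), a log2 change of 0.12 (95% interval -0.11 to 0.35) with an adjusted p of 0.58 in limma. The sign depended on the side, at -0.084 among KO 1, KO 2 and WT 3 and at 0.26 among the other 3 libraries, and it was negative after GC correction (-0.021). It was 0.072 without WT 1 and 0.21 without WT 3.

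Igfbp7 (ENSMUSG00000036256, chromosome 5), whose product binds IGFs weakly and is found in vessel walls, was the only tested IGF gene with a lower mean in KO. Its value was 3.97, 5.79 and 4.68 in KO 1, KO 2 and KO 3, against 5.57, 5.18 and 4.89 in WT 1, WT 2 and WT 3. The highest library was KO 2, and KO 1 and KO 3 were the lowest. The mean was 4.82 ± 0.9165 in KO against 5.21 ± 0.344 in WT (n = 3 each, ± SD), a log2 change of -0.11 (95% interval -0.39 to 0.18) with an adjusted p of 0.70 in limma. It was -0.34 after GC correction, 0.0016 without KO 1, -0.064 without WT 1 and -0.22 without KO 2. Of the exonic bases of Igfbp7, 7.03% lie within exons of Polr2b on the opposite strand, and reads of this kit carry no strand. Polr2b was 15.6 to 16.8 in all libraries.

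Igfbp6 (ENSMUSG00000023046, chromosome 15), whose product prefers IGF2 over IGF1, was also too low to be tested. It was 0.118, 0.310 and 0.206 in KO 1, KO 2 and KO 3, against 0.116, 0.145 and 0.288 in WT 1, WT 2 and WT 3. Each group held low and high libraries. With no filter its log2 change was 0.034, with an adjusted p of 0.89 in limma, and its sign turned without KO 2 or without WT 1.

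**Figure D3:**
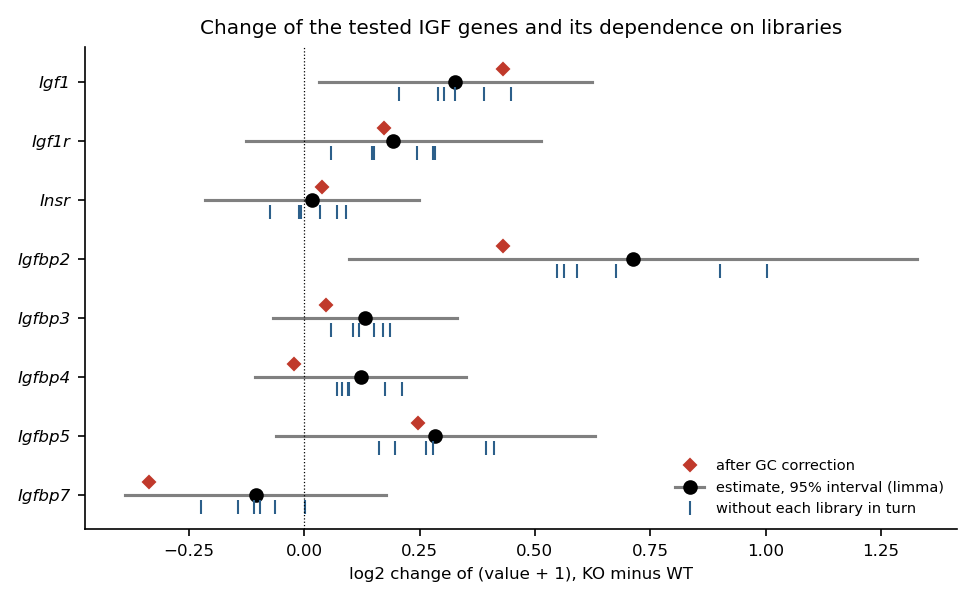
Log2 change of (value + 1), KO minus WT, of the 8 tested IGF genes (horizontal axis). Black points are limma's estimates with 95% intervals (grey), blue ticks are the estimates without each library in turn and red diamonds are the estimates after GC correction. The intervals of Igf1 and Igfbp2 lie above 0 before adjustment for 13911 genes, Igfbp2 spans 0.55 to 1.0 without single libraries, and Igfbp7 lies at -0.34 after GC correction.

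Patterns across the 6 libraries were compared by Pearson's r of log2 values between each tested IGF gene and all other tested genes. Igfbp2 was most like Maged2 and Wrap73 (r of 0.999 each), and 837 genes, 6.02% of those tested, had an r over 0.95 with it. Igfbp5 was most like Hip1 and Pcdh18 (0.993 each), with 56 genes over 0.95. Igf1 was most like Gm16541 (0.982) and Triqk (0.977), with 13 genes over 0.95. Igfbp3 was most like Rbp4 (0.959), the only gene over 0.95, and Gm5479 (0.946). For Igf1r these were an unnamed gene, ENSMUSG00000091795 (0.9955), and R3hdm2 (0.990), for Insr Zfp488 (0.998) and 4930470G03Rik (0.997), for Igfbp4 Gm15745 (0.982) and Gm12155 (0.981), and for Igfbp7 Gm14387 (0.983) and Gm14421 (0.979). With 6 libraries such values are descriptions.

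Around these genes, 48 genes of the pathway in 6 lists were read from the same fit, of which 43 were tested. In limma 0 passed at an adjusted p of 0.05, 4 had an unadjusted p under 0.05 with a higher and 1 with a lower mean in KO (10.3% of all tested genes passed in either direction). The KO group lay wholly above WT in 7 of the 43 genes and wholly below in 1, where 7.67% and 8.77% of all tested genes did so. The 7 genes had a GC content of 51.9% to 57.9%, above the median of 49.3% over tested genes, and the log2 change of each was smaller in size after GC correction, at -0.072 to 0.10, against 0.078 to 0.29 before it. After the correction 1 of these 7 still lay wholly above WT, and of the 43 genes 2 lay wholly above and 4 wholly below, where 4.65% and 9.65% of all genes did so. The median log2 change of the 43 genes was 0.079.

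Among proteases and partners of the binding proteins, 4 of 7 genes were tested, and 3 of these had a higher mean in KO. Igfbpl1, a gene related to the IGFBP family, was 2.09, 2.79 and 2.40 in KO 1, KO 2 and KO 3, against 3.38, 3.45 and 3.25 in WT 1, WT 2 and WT 3. The KO values were all lower than the WT values, on both sides of the component. The log2 change of -0.35 (95% interval -0.57 to -0.13) had an unadjusted p of 0.0066 and an adjusted p of 0.47 in limma, and it was -0.51 after GC correction (adjusted p 0.38). Htra1, a secreted serine protease that cuts binding proteins, was 22.3 ± 1.29 in KO against 19.6 ± 2.27 in WT (n = 3 each, ± SD), a log2 change of 0.18 that was 0.0083 after GC correction and 0.091 without WT 2. Pappa, named after its values were seen, was 0.589, 0.642 and 0.646 in KO 1, KO 2 and KO 3, against 1.01, 1.27 and 0.871 in WT 1, WT 2 and WT 3. Its groups did not overlap, but its mean was under the filter, and with no filter its log2 change of -0.33 had an adjusted p of 0.49 in limma.

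Of the receptor adaptors, 7 of 8 were tested and 5 had a higher mean in KO. Irs2, a docking protein of both receptors, was 1.755, 2.56 and 1.18 in KO 1, KO 2 and KO 3, against 0.793, 0.932 and 1.60 in WT 1, WT 2 and WT 3. WT 3 lay within the KO range, as it did for Igfbp2. Its log2 change was 0.42 (adjusted p 0.47 in limma), 0.24 after GC correction and 0.24 without KO 2. Grb2, an adaptor that leads to Ras, was 225 ± 0.397 in KO against 202 ± 13.0 in WT (n = 3 each, ± SD), with the whole KO group above WT and an adjusted p of 0.47.

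In the PI3K and Akt arm 12 of 12 genes were tested and 7 had a higher mean in KO. Inppl1, a lipid phosphatase, was 4.935 ± 0.645 in KO against 3.84 ± 0.499 in WT, and Pik3r2, a regulatory subunit of PI3K, was 2.82 ± 0.469 in KO against 2.08 ± 0.497 in WT (n = 3 each, ± SD). Their log2 changes of 0.29 and 0.31 were 0.10 and 0.040 after GC correction. In the mTOR arm 7 of 11 had a higher mean in KO. Ddit4, a stress-induced inhibitor of mTOR complex 1, was 16.3, 18.8 and 19.2 in KO 1, KO 2 and KO 3, against 16.15, 12.9 and 15.0 in WT 1, WT 2 and WT 3, and the KO group lay above WT by a small margin. Tsc2, another inhibitor of that complex, was 3.935 ± 0.4435 in KO against 3.20 ± 0.299 in WT (n = 3 each, ± SD). Both had an adjusted p of 0.47 in limma. The log2 change of Ddit4 was 0.28 and 0.073 after GC correction, and that of Tsc2 was 0.23 and 0.098.

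In the FoxO and GSK3 arm 3 of 5 genes had a higher mean in KO. Foxo4, a transcription factor that Akt inhibits, was 17.5 ± 0.886 in KO against 15.1 ± 0.402 in WT, and the kinase gene Gsk3a was 13.0 ± 0.584 in KO against 11.7 ± 0.706 in WT (n = 3 each, ± SD). After GC correction the log2 change of Foxo4 was 0.048 and that of Gsk3a was -0.10. In the growth hormone axis 4 of 5 genes were tested and 2 had a higher mean in KO. Socs2, a feedback inhibitor of the growth hormone receptor, was 1.11 ± 0.119 in KO against 1.32 ± 0.149 in WT, and Stat5b, a transcription factor of that receptor, was 4.27 ± 0.559 in KO against 3.89 ± 0.232 in WT (n = 3 each, ± SD). Their log2 changes of -0.13 and 0.10 were -0.083 without WT 2 and 0.019 without KO 2.

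**Figure D4:**
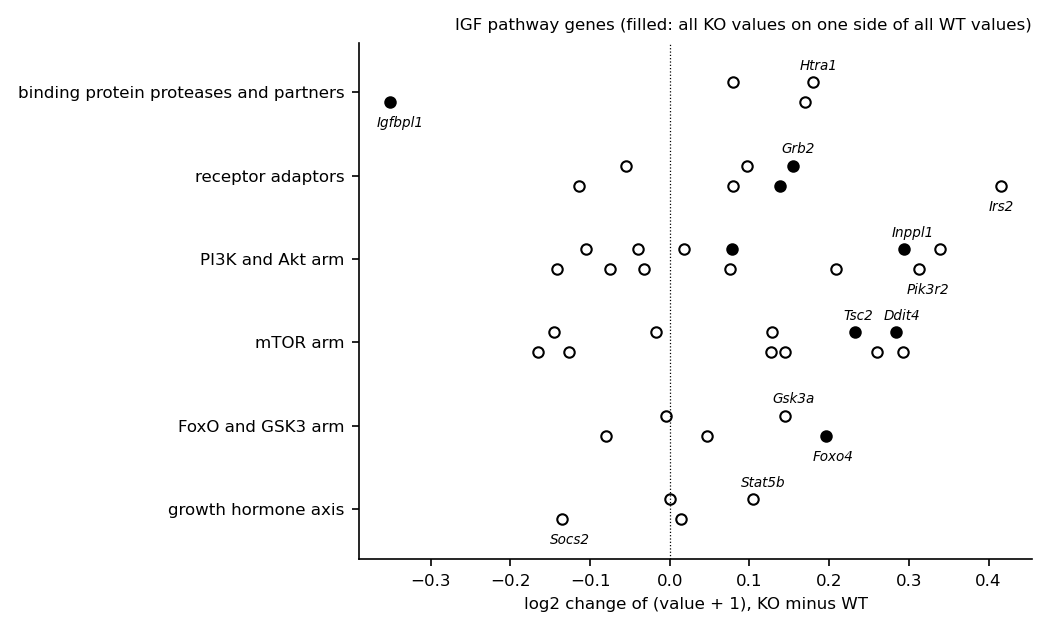
Log2 change of (value + 1), KO minus WT (horizontal axis), of the 43 tested pathway genes in 6 lists (rows). Points are genes, filled where the KO and WT groups did not overlap, and the 2 genes of each list with the lowest p are named. Igfbpl1 lies farthest to the left at -0.35 and Irs2 farthest to the right at 0.42.

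The summed levels of cell type markers gave the setting of these values. Markers of pancreatic epithelium (10 genes) summed to 549 to 810 in KO and 603 to 729 in WT. Endocrine markers (8 genes) summed to 219 to 358 in KO and 254 to 357 in WT. On the scale of log2(value + 1), 6 of 8 had a lower mean in KO, where 53.5% of all tested genes had a higher one. Among these 6, Chga and Ins2 had a higher mean of deposited values in KO, at 12.6 against 12.5 and 9.47 against 6.89 in WT. Erythroid markers (7 genes) summed to 1886 to 3403 in KO and 1495 to 3039 in WT. All 6 that were tested had a higher mean in KO, and 0 lay wholly above WT. Mesothelial markers (5 genes) summed to 27.9 to 47.2 in KO and 33.5 to 37.2 in WT. The sum of 10 mesenchymal markers was 771 to 849.8 in KO and 834 to 861 in WT, and 4 of 10 markers had a higher mean in KO. Wholly above WT lay 1 of them and wholly below lay 2, where 7.67% and 8.77% of all tested genes did so. The sum of 10 endothelial markers was 128 to 151 in KO and 107 to 118 in WT, without overlap. Of the 10, 9 had a higher mean in KO and 7 lay wholly above WT, where 53.5% and 7.67% of all tested genes did so. At an adjusted p of 0.05 in limma 0 of them passed. For the markers of lowest p, Cdh5 and Cldn5, the log2 changes were 0.32 and 0.31, and 0.24 and 0.057 after GC correction. Markers of leukocytes (6 genes) summed to 19.55 to 25.9 in KO and 17.8 to 22.2 in WT. Of the 5 that were tested, 4 had a higher mean in KO and 2 lay wholly above WT, beside the same shares. Of 12 genes of hypoxia and glycolysis, 11 had a higher mean in KO and 8 lay wholly above WT, beside the same shares of 53.5% and 7.67%. Ndrg1 lay wholly below WT, as 8.77% of all tested genes did, and 0 of the 12 passed limma after adjustment. The sum of the 12 was 541 to 654.5 in KO and 386 to 462 in WT. For the genes of lowest p, Slc2a1 and Pgk1, the log2 changes were 0.605 and 0.33, and 0.49 and 0.31 after GC correction. Of 6 markers of smooth muscle and pericytes, Myh11 and Cnn1 were under 1 in all libraries, while Acta2 was 4.74 to 7.98, Tagln 2.29 to 3.50, Cspg4 1.17 to 2.63 and Rgs5 22.3 to 35.7. The sum of the 6 was 34.5 to 42.0 in KO and 39.9 to 44.6 in WT, with overlap. Of the 4 that were tested, 3 had a higher mean in KO, and Rgs5, which has the largest values, had a lower one. The endothelial marker Cdh5 was 17.4 or more in every library. Whether the content of endothelial or other cells, or the hypoxia genes, had a part in the levels of Igf1, Igfbp2, Igfbp3 or Igfbp5 was not tested.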

How the data were processed

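RNA of dorsal pancreata was made into unstranded TruSeq libraries, per the labels' protocols. CASAVA 1.82, Bowtie 0.12.7 and build mm9 stand in the submitters' processing notes, with no counting, annotation or normalization step given. The deposited files hold a signal per Ensembl gene, of unstated unit, so read depth is unknown and counting error cannot be stated.

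Symbols matched 22624 of 24389 identifiers (92.8%). Values were used unscaled. Genes with a mean of at least 1 were tested on log2(value + 1), which understates changes of low genes, with limma 3.58.1 in R 4.3.3 (trend, two-sided, group only, 95% intervals). An exact test of 3 against 3 cannot give a p under 0.1. GC content was that of the longest GENCODE transcript (GRCm38), known for 13385 tested genes (96.2%), with a loess correction of span 0.3. Promoter windows matched 9 of 10 IGF genes.

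The genes, lists and tests were chosen with earlier results of these data known. The text names the IGF genes, Bicc1, the 2 genes of lowest p in each list and the 2 most alike genes. On simulated data over 13911 genes, KO against WT, changes of 0.5, 1 and 2 log2 units were recovered in 43.3%, 92.5% and 98.5%. In that simulation 200 genes were changed, and there were 3 false calls. Its genes varied independently, without the component that the real libraries share, so these shares are not the power of the real comparison. Python 3.11.15, numpy 2.4.6 and pandas 2.3.3 made tables.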

Additional observations from a re-analysis of the deposited data

How the results depend on the processing

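None of the IGF genes passed limma at an adjusted p of 0.05 under any of the 16 alternatives, where 0 to 3 of them had an unadjusted p under 0.05. Over these alternatives the log2 change was 0.21 to 0.45 for Igf1 and 0.43 to 1.0 for Igfbp2, with adjusted p of 0.29 to 0.91 and 0.13 to 0.91. The count of all genes past the threshold was 2, and it was 1 with no filter on low values, 4 after GC correction, 0 with the replicate number as a block and 1 to 7 without single libraries (7 without KO 2, and 1 without KO 1, KO 3, WT 1 or WT 3). The sign turned for Insr without KO 2 (-0.012), KO 3 (-0.0064) or WT 3 (-0.073), in a range up to 0.091 without WT 2, for Igfbp4 (-0.021) and Gsk3a (-0.10) after GC correction, for Igfbp7 without KO 1 (0.0016), and for Igfbp6 without KO 2 (-0.024) or WT 1 (-0.0064). The cause was not tested. Values within the sides of the component were added after the data were seen. The labels do not state that libraries of the same number are pairs, so the numbers were not taken as pairs. Between libraries of the same number, deviations from the group means correlated at -0.22, -0.40 and -0.64. For each number the KO and the WT library lay on opposite sides of the first component, so these correlations cannot decide whether they are pairs. With the block the log2 change of Bicc1 was again -1.89, with an adjusted p of 0.088 in limma.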
